A study of Mus musculus with 2 samples.

Results

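The 34 genes described here serve fat storage and hormone output in adipocytes, and they were taken from the 34745 genes of the count table as a list of names. The list was drawn up with earlier results of these data known, so its direction is not independent evidence. All 34 were found by symbol. They cover hormones and secreted proteins, the coat of the lipid droplet, lipolysis, the uptake of fatty acids and glucose, the synthesis of triglyceride, transcription factors, thermogenesis and carbonic anhydrase 3. RNA was measured by RNA-seq of ear skin in 2 libraries, 1 from mice labelled wild type (WT) and 1 from mice labelled KAT8 conditional knockout (KAT8 cKO). KAT8 is a histone acetyltransferase. Both groups had 30 mg of a 5% imiquimod cream on each ear daily for 3 days, with collection on day 4. Imiquimod activates TLR7 and produces a psoriasis-like inflammation of mouse skin. The sources used here do not state the driver of the knockout, the strain, age or sex of the mice, or how many animals made up a library. No untreated skin was analysed here, and with 1 library a genotype the spread between animals is unknown, so no test was made.

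White adipocytes keep triglyceride in a single large droplet whose surface is covered by perilipin 1 and CIDEC. In feeding, lipoprotein lipase and fatty acid carriers bring in fatty acids, which are joined to glycerol phosphate. In fasting, catecholamines acting on beta-adrenergic receptors open the droplet to the lipases ATGL and HSL. Skin has its own layer of such cells under the dermis, and the same enzymes of lipid handling also work in sebaceous glands, muscle, endothelium and macrophages.

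The libraries held 12179608 (WT) and 13727524 (KAT8 cKO) counts on genes. Kat8 itself had 219 and 351 counts, so the targeted gene was no lower under the KAT8 cKO label, and "KAT8 cKO" below means only that label. A table of whole-gene counts also covers exons outside a deleted part and cells outside a conditional knockout, and Kat8 shares 122 exon bases with Prss8, which makes this a weak check of the label. Xist had 11891 and 6 counts and the Y-linked gene Eif2s3y 0 and 838. By these transcripts the WT library was female and the KAT8 cKO library male. Sex therefore cannot be told apart from genotype in any value below. The 14 skeletal muscle genes of a marker list took 1.73% of counts in the WT library (exact 95% interval 1.72 to 1.74) and 0.397% in the other (0.393 to 0.400). The 14 sebaceous genes took 0.267% (0.265 to 0.270) and 1.03% (1.03 to 1.04). These tissues express several of the genes below. Their part in the results was not tested.

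Levels are given as scaled counts (CPM, counts relative to a fixed library total), adjusted by the trimmed mean of M values (TMM), where a single count is worth 0.0868 CPM (WT) or 0.0689 CPM (KAT8 cKO). A fold is the plain ratio of CPM with an exact 95% interval that covers counting error only. A gene was measured if it reached 1 CPM in either library. It was counted as lower or higher if its log2 ratio of (CPM + 1) reached -1 or 1. Calls by 2-fold and "within 2-fold" below follow this rule. The added 1 CPM shrinks the ratio of low genes, so some counted as within 2-fold have a plain fold past 2.

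Of the 34 adipocyte genes 33 were measured, and 22 of these were lower by 2-fold or more in the KAT8 cKO library, 1 was higher and 10 lay within 2-fold. Among all 15240 measured genes 8.63% were lower and 4.56% higher by the same rule. With plain CPM in place of TMM scaling, the counts over all genes were 1056 lower and 964 higher against 1315 and 695. The median log2 ratio of the 33 was -1.68, beside 0.01 for all measured genes. Together the 34 genes took 0.706% of counts in the WT library (0.701 to 0.711) and 0.212% in the other (0.210 to 0.215). In bulk tissue, fewer adipocytes and less RNA per adipocyte cannot be told apart.

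The genes did not differ by a similar factor. The range ran from Pck1, 42.1-fold lower, to Cidea, 6.22-fold higher. Retn, Cidec, Fabp4, Aqp7, Adrb3 and Mrap, between 9.21-fold and 15.4-fold lower, had intervals that overlapped that of Adipoq (12.7-fold). An overlap depends on depth and does not show a shared factor. Mrap, with few counts, had an interval from 6.09 to 14.5, and Car3, with many, was 9.06-fold lower with an interval from 8.67 to 9.48 that did not overlap that of Adipoq. Cfd and Pck1 were lower by more than Adipoq, and the other 24 measured genes were lower by less, or not lower, with intervals apart from that of Adipoq. Lep and Cebpa had intervals that held a ratio of 1.

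**Figure D1:**
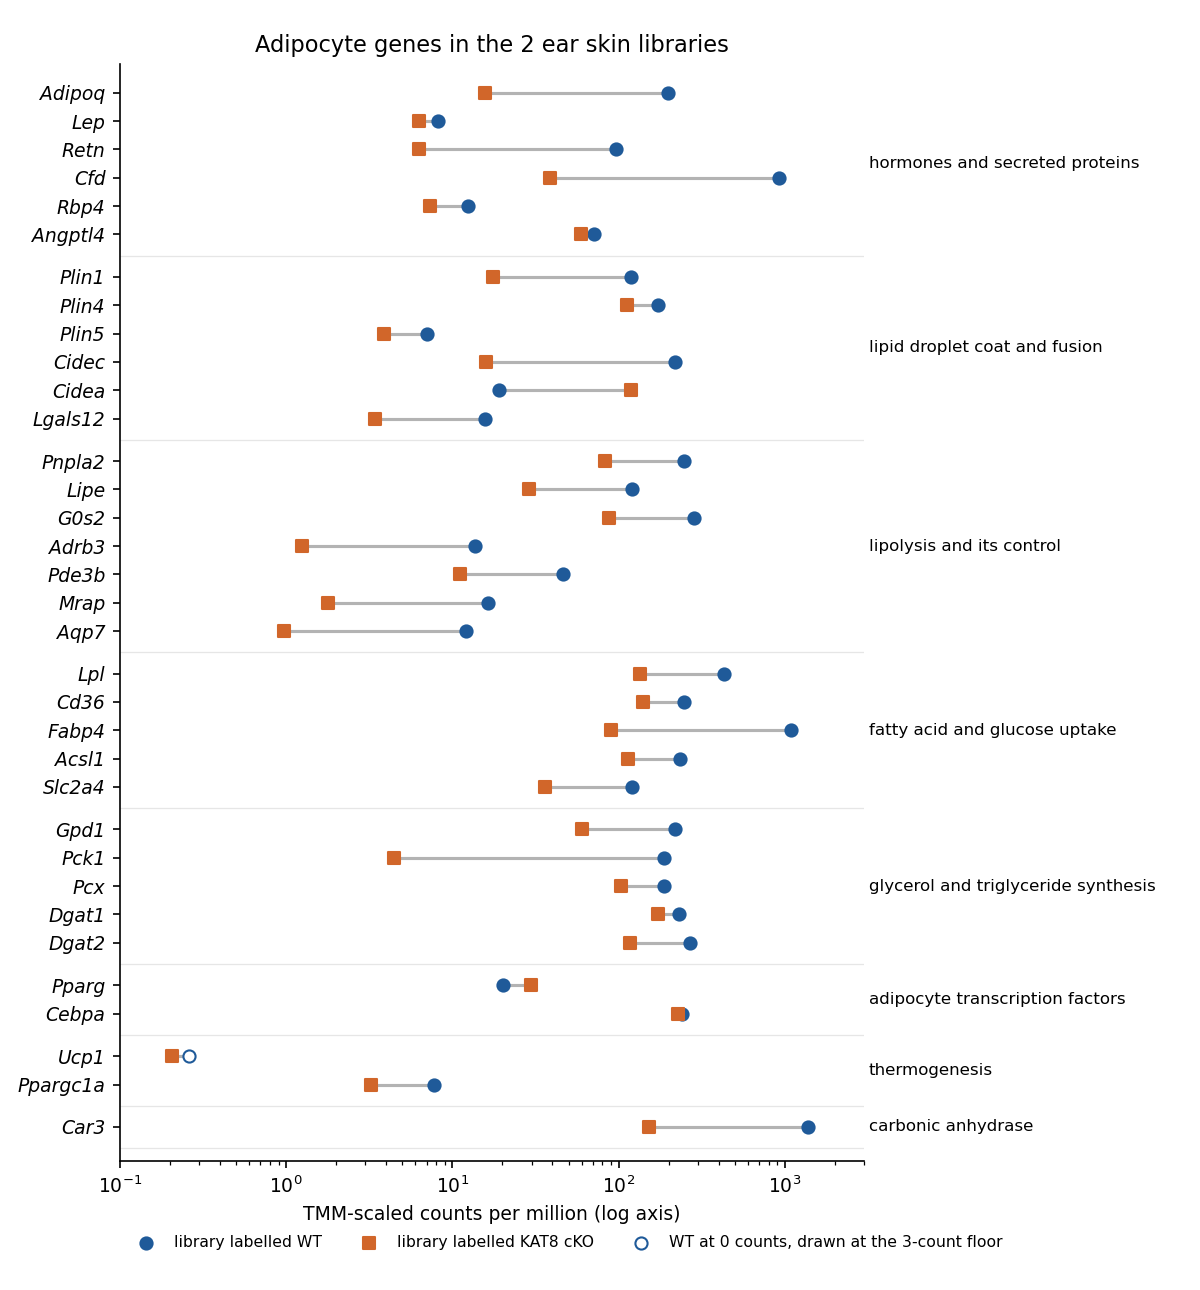
TMM-scaled CPM of the 34 genes on a log axis, grouped by role, with circles for the library labelled WT and squares for the library labelled KAT8 cKO. Long bars to the left mark Adipoq (199 to 15.6 CPM), Retn, Cfd, Plin1, Cidec, Adrb3, Mrap, Aqp7, Fabp4, Pck1 and Car3. Cidea alone has a long bar to the right.

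Among the hormones, the adipokine genes differed widely. Adipoq, which encodes adiponectin (ENSMUSG00000022878, chromosome 16 from 23146536 to 23158028, plus strand, GRCm38), had 2296 (WT) and 227 (KAT8 cKO) counts. This was 199 and 15.6 CPM, 12.7-fold lower (11.1 to 14.7). Retn, the gene of resistin, was close to it with 1116 and 91 counts, 15.4-fold lower (12.5 to 19.3). Cfd, which encodes adipsin, the complement factor D that fat cells secrete (chromosome 10 from 79890853 to 79892655), went further. It had 10638 and 558 counts, or 923 and 38.4 CPM, 24.0-fold lower (22.1 to 26.2). Per kilobase of exon Cfd had the highest level of the 34 in the WT library and was the sixth in the other, at 41.7 CPM per kilobase.

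The remaining 3 genes of this role lay within 2-fold. Lep (chromosome 6 from 29060220 to 29073877), whose hormone reports fat stores to the brain, had 94 and 91 counts, or 8.16 and 6.27 CPM. Its fold of 1.30 had an interval from 0.965 to 1.76. There were 24.4 counts of Adipoq for each count of Lep in the WT library and 2.49 in the other, so the ratio of Lep to Adipoq was 9.78-fold higher in the latter (exact conditional interval 7.02 to 13.6). Such a ratio of 2 genes within a library does not depend on the scaling of the libraries. Rbp4, the carrier of retinol, had 143 and 107 counts (1.68-fold lower, 1.30 to 2.18). Angptl4, a secreted inhibitor of lipoprotein lipase, had 815 and 868 counts (1.18-fold lower, 1.07 to 1.30).

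The stretches before the start sites of 5 members, picked after their values were known, are printed here. Adipoq, Cfd and Aqp7 were 12.7-fold, 24.0-fold and 12.6-fold lower. The fold of Aqp7 rests on few counts, with an interval from 7.26 to 23.6. Lep and Cebpa were near the same level in both libraries. Each run is the 250 bases before a RefSeq start site on GRCm38.p6, read 5′ to 3′ on the strand of the gene. Capitals mark matches on either strand to GGTCANAGG (the inner letters of a PPAR element), TTGCGCAA (a C/EBP palindrome), CCAAT or TATAAA.
Adipoq, chr16:23146286-23146535, plus strand: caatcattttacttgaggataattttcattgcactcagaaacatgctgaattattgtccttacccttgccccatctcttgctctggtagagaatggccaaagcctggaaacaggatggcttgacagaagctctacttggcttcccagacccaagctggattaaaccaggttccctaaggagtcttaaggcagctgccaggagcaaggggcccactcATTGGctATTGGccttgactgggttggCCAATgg
Cfd, chr10:79890603-79890852, plus strand: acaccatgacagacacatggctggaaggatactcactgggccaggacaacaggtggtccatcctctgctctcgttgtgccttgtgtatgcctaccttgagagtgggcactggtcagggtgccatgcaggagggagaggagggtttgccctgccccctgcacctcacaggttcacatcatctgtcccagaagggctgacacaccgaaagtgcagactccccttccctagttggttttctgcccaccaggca
Aqp7, chr4:41048137-41048386, minus strand: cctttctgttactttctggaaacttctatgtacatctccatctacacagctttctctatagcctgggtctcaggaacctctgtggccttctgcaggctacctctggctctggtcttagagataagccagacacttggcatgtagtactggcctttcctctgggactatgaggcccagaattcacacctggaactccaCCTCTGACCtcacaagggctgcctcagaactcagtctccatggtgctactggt
Lep, chr6:29059971-29060220, plus strand: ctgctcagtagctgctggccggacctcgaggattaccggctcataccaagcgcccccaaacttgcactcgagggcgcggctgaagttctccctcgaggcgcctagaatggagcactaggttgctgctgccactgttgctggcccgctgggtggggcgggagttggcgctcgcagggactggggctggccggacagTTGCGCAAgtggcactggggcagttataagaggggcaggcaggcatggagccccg
Cebpa, chr7:35119043-35119292, plus strand: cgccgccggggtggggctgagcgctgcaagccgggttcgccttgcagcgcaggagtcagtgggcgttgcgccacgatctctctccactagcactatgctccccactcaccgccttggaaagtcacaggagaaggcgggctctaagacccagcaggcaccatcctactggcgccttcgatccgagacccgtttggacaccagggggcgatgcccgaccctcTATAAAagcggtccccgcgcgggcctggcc

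Of the 34 genes 21 matched an entry of the RefSeq promoter table, with 30 start sites. No window of these held the full repeat AGGTCANAGGTCA, which 0.0335% of the 32851 windows of the table hold. GGTCANAGG lay before Aqp7 and no other matched member (1.43% of all windows), at a single site that both of its overlapping windows hold. TTGCGCAA lay only before Lep, from 55 to 48 bases upstream (0.164% of all windows). CCAAT lay in 9 of the 30 windows, beside 33.8% of all windows. Its 8 genes were Adipoq, with 3 matches within 34 bases of its start, Acsl1, which was just past 2-fold lower, and Cd36, Pcx, Plin4, Plin5, Pparg and Rbp4, all within 2-fold. Cebpa, Pparg and Rbp4 each had a TATAAA match (12.4% of all windows). The motifs were picked after the values were known, and a match of letters is not evidence of binding.

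CpG dinucleotides, whose density separates broadly used from tissue-restricted promoters in general, also varied among the windows. The 7 members with an entry that were at least 5-fold lower (Pck1, Aqp7, Cidec, Plin1, Retn, Cfd and Adipoq) had 0 to 6 CpGs in their 9 windows, with a median of 2. The 5 with smaller calls (G0s2, Ppargc1a, Lipe, Pnpla2 and Acsl1) had 1 to 20, with a median of 11. The 8 within 2-fold had 2 to 38, with a median of 12. The median over all windows of the table was 6. The groups overlap, the split at 5-fold was set after the values were seen, and 13 members had no entry.

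Of the 6 genes of the lipid droplet 5 had a lower CPM in the KAT8 cKO library, and only Cidea had a higher one. Plin1, the perilipin that guards the droplet of fat cells (chromosome 7 from 79720218 to 79732903), had 1372 and 256 counts, 6.75-fold lower in the KAT8 cKO library (5.90 to 7.75). The neighbours Plin4 (chromosome 17 from 56100591 to 56109803) and Plin5 (56111601 to 56117596) were less different. Plin4 had 1983 and 1639 counts (1.52-fold lower, 1.43 to 1.63) and Plin5, a perilipin of oxidative tissues, 81 and 56 (1.82-fold, 1.28 to 2.61). Relative to Plin1 in the same library, Plin4 was 4.43-fold higher (3.81 to 5.16) and Plin5 3.70-fold higher (2.52 to 5.42) in the KAT8 cKO library. Lgals12, a galectin of the droplet surface, had 180 and 50 counts (4.53-fold lower, 3.30 to 6.33).

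The CIDE genes, whose proteins pass lipid between droplets, showed the widest contrast of any pair examined. Cidec (chromosome 6 from 113424634 to 113435760) had 2519 and 232 counts, or 219 and 16.0 CPM, 13.7-fold lower (12.0 to 15.7). Cidea had 220 and 1723 counts, or 19.1 and 119 CPM, 6.22-fold higher (5.40 to 7.19). The WT library thus held 11.4 counts of Cidec for each of Cidea, and the other 7.43 of Cidea for each of Cidec, a change of 84.9-fold (69.7 to 104). Per kilobase of exon, Cidea ranked 23 of the 34 in level in the WT library and 1 in the other. Cidea is a brown fat marker that sebaceous glands also make. In the same library 10 of the 14 sebaceous genes were higher and 1, Dgat2, lower (median log2 ratio 2.16). Of the higher ones, Awat2 and Mc5r passed the filter on level only through the KAT8 cKO library. Ucp1 was at 0 and 3 counts. The part of sebaceous glands in the Cidea value was not tested.

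All 7 genes of lipolysis and its control were at least 2-fold lower, with a median log2 ratio of -2.03. Pnpla2, which encodes ATGL, the first lipase, had 2864 and 1201 counts, or 249 and 82.8 CPM (3.00-fold lower, 2.81 to 3.22). G0s2, the protein inhibitor of that lipase, had 3262 and 1278 counts (3.22-fold, 3.01 to 3.43). The ratio of inhibitor to lipase was 1.14 and 1.06, a change of 0.934 (0.850 to 1.03). Lipe, which encodes HSL, the second lipase, had 1396 and 421 counts (4.18-fold lower, 3.74 to 4.67). Against Pnpla2 it was 1.39-fold lower (1.22 to 1.58), though exons of Lipe share 918 bases with those of 4732471J01Rik.

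The receptors and channels of lipolysis differed by more than the lipases. Adrb3, the beta3-adrenergic receptor of fat cells, had 157 and 18 counts (11.0-fold lower, 6.73 to 19.0). Mrap, which lets fat cells respond to ACTH, had 190 and 26 (9.21-fold, 6.09 to 14.5). Aqp7, the channel through which glycerol leaves, had 140 and 14 (12.6-fold, 7.26 to 23.6), and passed the filter on level only through the WT library. All of these had wide intervals because of their low counts. Their ratios to Adipoq changed by 1.16 (0.657 to 1.94), 1.38 (0.862 to 2.15) and 1.01 (0.530 to 1.79). Pde3b, the phosphodiesterase by which insulin restrains lipolysis, was close to the lipase gene Lipe, with 532 and 162 counts (4.14-fold lower, 3.46 to 4.96).

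**Figure D2:**
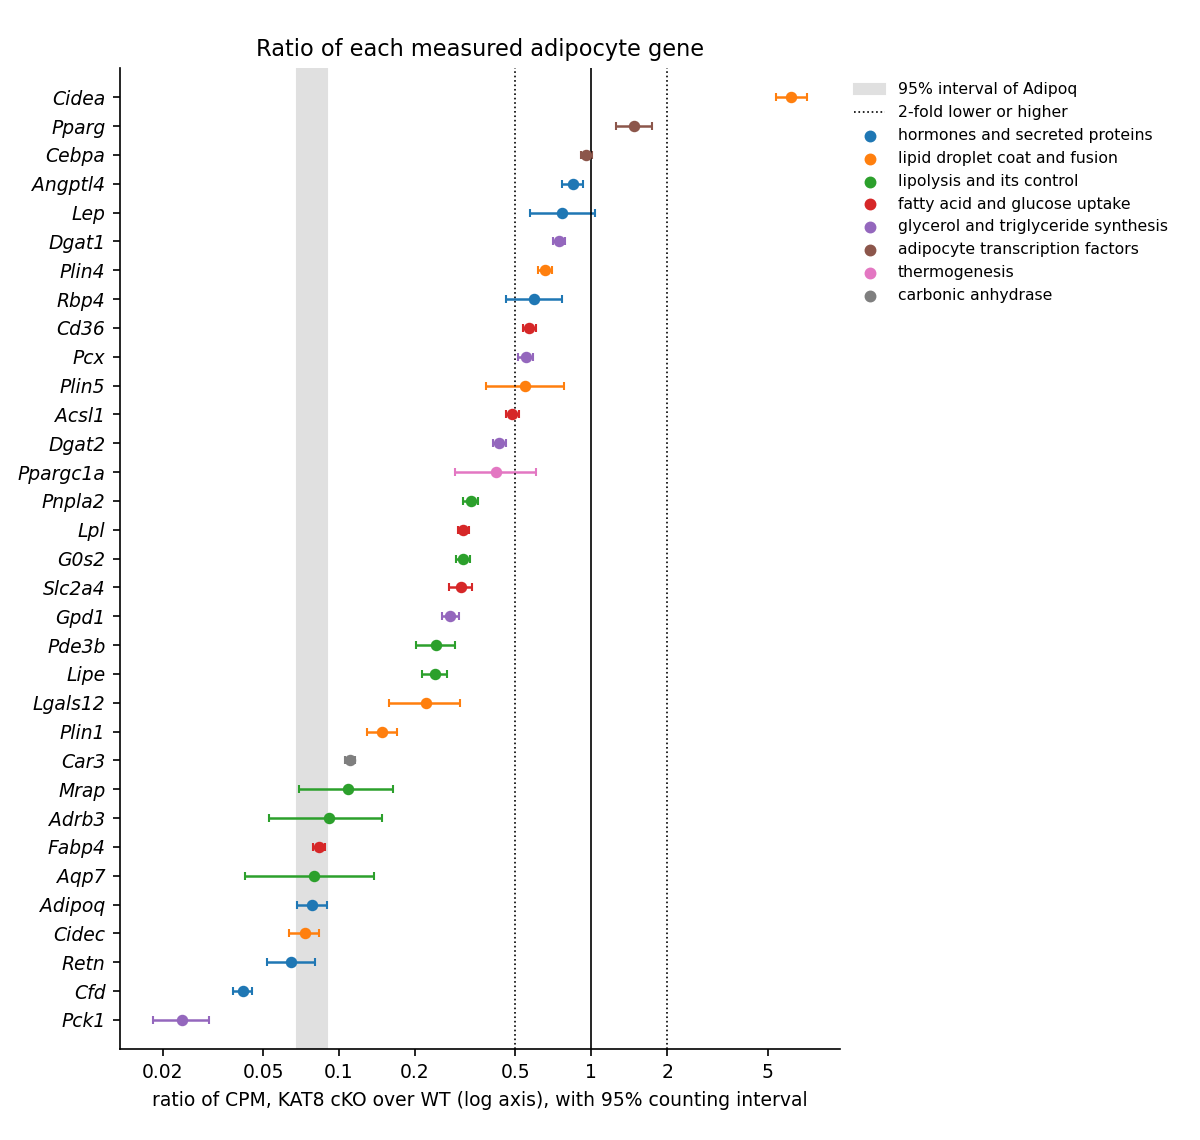
Ratio of CPM, KAT8 cKO over WT, of the 33 measured genes on a log axis, with exact 95% counting intervals, coloured by role; the grey band is the interval of Adipoq and dotted lines mark 2-fold. Pck1 and Cidea (6.22) lie at the ends, hormone genes spread from Cfd (0.0416) to Angptl4 (0.845), and the 7 lipolysis genes all lie left of 0.5.

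For uptake, the fatty acid carrier differed far more than the transporters. Fabp4 (chromosome 3 from 10204088 to 10208576), the carrier of fat cells that endothelium and macrophages also make, had 12522 and 1313 counts, or 1087 and 90.5 CPM. It was 12.0-fold lower (11.3 to 12.7), and its ratio to Adipoq changed by 1.06 (0.914 to 1.23). Lpl, the lipase that frees fatty acids from lipoproteins, had 4993 and 1957 counts (3.21-fold lower, 3.05 to 3.39). Against its inhibitor, Angptl4, Lpl was lower by 2.72-fold (2.43 to 3.03). Slc2a4, the insulin-responsive glucose transporter GLUT4 of fat and muscle, had 1379 and 527 counts (3.30-fold, 2.98 to 3.65). Acsl1, which activates fatty acids, had 2687 and 1649 counts (2.05-fold, 1.93 to 2.18), a log2 ratio of -1.03 just past the threshold. Cd36, a fatty acid receptor also found on endothelium and macrophages, had 2862 and 2049 (1.76-fold, 1.66 to 1.86).

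Markers of endothelium and macrophages differed less than Fabp4, but some genes of both lists had a larger fold than Cd36. In the endothelial list 10 genes lay below a log2 ratio of 0 and 1 above. Gpihbp1 (1.86-fold lower, 1.43 to 2.42) and Emcn (1.81-fold, 1.43 to 2.30) were picked after their values were seen. Their folds were above that of Cd36, with intervals that overlapped its own. None of 11 endothelial genes was past 2-fold (median log2 ratio -0.42), and Pecam1 and Eng were at -0.33 and -0.05. Of 11 macrophage genes 4 were lower and none higher (median -0.78), with Cd163 3.70-fold, Lyz2 2.50-fold, C1qc 2.18-fold and Cd68 2.03-fold lower. In the muscle list all 14 genes were lower (median -2.23), led by Myh4 (12.5-fold), Actn3 (12.6-fold), Myoz1 (9.17-fold) and Ckm (6.64-fold), and the list summed to 18300 and 3753 CPM. Without genes that share exons, 8 of the muscle genes were left, all lower. Reads of the similar myosin genes may be split between them. The part of muscle in the values of Slc2a4, Lpl and Car3, or of endothelium and macrophages in Fabp4 and Cd36, was not tested.

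In the synthesis of triglyceride, the step that supplies glycerol from pyruvate was divided. Pck1, the PEP carboxykinase of glyceroneogenesis (chromosome 2 from 173153048 to 173159273), had 2172 and 65 counts, or 189 and 4.48 CPM. At 42.1-fold lower (32.9 to 54.7) it had the lowest ratio of the 34 genes. Pcx, the pyruvate carboxylase that acts just before it, had 2164 and 1500 counts (1.82-fold lower, 1.70 to 1.94). The counts of Pcx and Pck1 were thus nearly equal in the WT library (ratio 0.996) and 23.1 to 1 in the other. Gpd1, which makes glycerol phosphate from glycolysis, had 2510 and 874 counts (3.62-fold lower, 3.35 to 3.91), and 384 bases of its exons overlap Gm16537.

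The enzymes of the final step were less different. Dgat1 had 2660 and 2494 counts (1.34-fold lower, 1.27 to 1.42) and Dgat2 3115 and 1694 (2.32-fold, 2.18 to 2.46). The ratio of Dgat2 to Dgat1 was 1.17 in the WT library and 0.679 in the other, a change of 0.580 (0.535 to 0.629). Both enzymes are also active in sebaceous glands and epidermis.

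The transcription factors of the fat cell program were not lower by 2-fold. Cebpa had 2758 and 3316 counts, or 239 and 228 CPM, and its fold of 1.05 had an interval from 0.996 to 1.10. Its sign turned under plain CPM and under totals without the 50 most abundant genes. Pparg, the nuclear receptor that many of these genes answer to, had 231 and 429 counts, or 20.1 and 29.6 CPM, 1.47-fold higher (1.25 to 1.74). Epidermis also expresses Cebpa, and sebaceous glands express Pparg. As a share of the counts of the 34 genes, Cebpa went from 3.21% (3.09 to 3.33) to 11.4% (11.0 to 11.7).

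Thermogenic genes were scarce in both libraries. Ucp1, the uncoupling protein of brown fat, had 0 counts in the WT library, which allows up to 0.260 CPM, and 3 in the other (0.207 CPM), so no fold is given. Ppargc1a, a coactivator of mitochondrial genes in brown fat and muscle, had 89 and 47 counts (2.39-fold lower, 1.66 to 3.47), with a log2 ratio of -1.04. Car3, the carbonic anhydrase abundant in fat and slow muscle (chromosome 3 from 14863512 to 14872523), had 15867 and 2206 counts, or 1377 and 152 CPM. It was 9.06-fold lower (8.67 to 9.48). Its share of the counts of the 34 genes was the largest in the WT library, at 18.4% (18.2 to 18.7), and 7.57% (7.27 to 7.88) in the other.

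**Figure D3:**
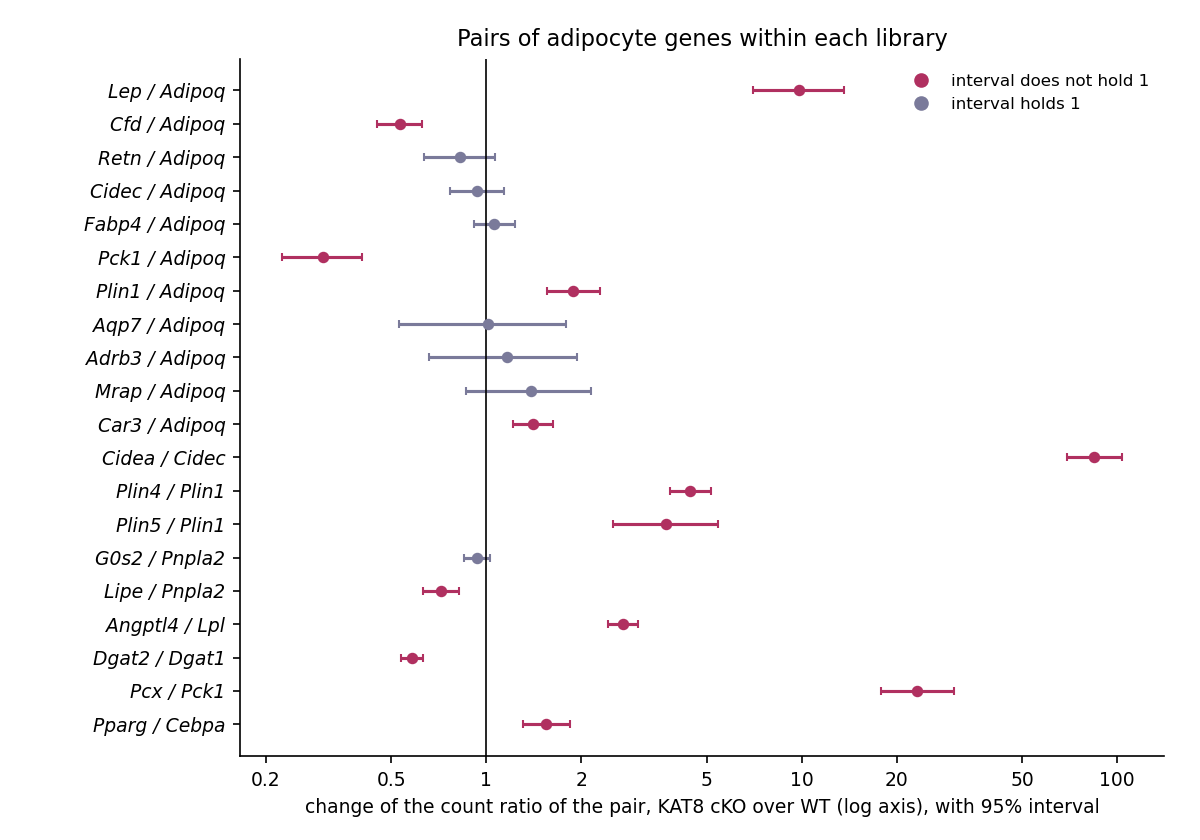
Change of the count ratio of 20 pairs of genes between the libraries, KAT8 cKO over WT, on a log axis with exact 95% intervals. Pairs in grey hold 1 within the interval, among them G0s2 with Pnpla2 and Cidec, Fabp4 and Aqp7 with Adipoq; Cidea with Cidec lies farthest from 1, at 84.9.

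The roles therefore had different summed ratios. Hormones and secreted proteins summed to 1311 and 134 CPM (9.80-fold lower, 9.34 to 10.3), and uptake genes to 2122 and 516 CPM (4.11-fold, 4.00 to 4.22). Lipolysis genes summed to 741 and 215 CPM (3.45-fold, 3.31 to 3.59) and synthesis genes to 1096 and 457 CPM (2.40-fold, 2.33 to 2.47). Droplet genes, with Cidea among them, summed to 552 and 273 CPM (2.02-fold, 1.94 to 2.11). The sums follow their most abundant members, such as Cfd among hormones. By median log2 ratio, the 5 roles with at least 5 genes were at -2.13 (hormones), -2.03 (lipolysis), -1.68 (uptake), -1.31 (droplet) and -1.20 (synthesis). Without genes with overlapping exons, lipolysis (-2.30) came before hormones. The smaller roles were at -3.17 (Car3 alone), -1.04 (Ppargc1a alone) and 0.24 (transcription factors). Among the 5 larger roles, lipolysis was the one with no gene within 2-fold.

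The 34 genes were also divided by hand by whether muscle, sebaceous gland, endothelium or macrophages were taken to express them. The division was made with earlier results known, and expression of the restricted genes outside fat was not checked. Of the 15 taken as more restricted to fat 14 were measured, 12 were lower and none higher, with a median log2 ratio of -2.70. The 2 exceptions were Lep and Rbp4. The 15 genes summed to 1992 and 160 CPM (12.5-fold lower, 11.9 to 13.0). Of the other 19, 10 were lower and 1 higher (median -1.03), and they summed to 5474 and 1848 CPM (2.96-fold, 2.92 to 3.00). The shared genes that were lowest, Fabp4 and Car3, lay within the range of the restricted ones. All 9 defining adipocyte markers were detected in both libraries, from 8.16 to 923 CPM in the WT library and from 1.72 to 38.4 CPM in the other.

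Most of the further genes known from adipocytes, outside the 34, were lower too. This list was also drawn up with earlier results of these data known, so its direction is not independent evidence. Of its 15 genes 11 were lower and none higher, beside 8.63% lower and 4.56% higher among all measured genes. The median log2 ratio was -2.10, and Itih4, Ces1f and Klb passed the filter only through the WT library. Cyp2e1, a cytochrome P450, had 3983 and 29 counts (173-fold lower, 120 to 259) and Thrsp, a regulator of fat synthesis, 1656 and 45 (46.4-fold, 34.5 to 63.8). Itih4 had 167 and 2 counts (105-fold, 28.7 to 876). The carboxylesterase gene Ces1f had 183 and 9 (25.6-fold, 13.2 to 56.9), though reads may be split among its near-identical copies. Adig, which encodes adipogenin and was picked after its value was seen, resembled Lep, with 218 and 246 counts and a ratio of 0.896 (0.743 to 1.08).

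Of the wider lipid genes most lay within 2-fold. Among all measured genes 8.63% were lower and 4.56% higher. Of 11 measured other droplet genes 3 were lower and 1 higher (median log2 ratio -0.32). Pnpla3, Fitm1 and Hilpda were 7.94-fold, 3.35-fold and 3.13-fold lower. Mgll, the lipase of the last step of lipolysis, had 1801 and 20578 counts, or 156 and 1418 CPM (9.07-fold higher, 8.64 to 9.52), opposite to Pnpla2 and Lipe, and its exons overlap those of Gm26588. Of 11 measured genes of the earlier steps of triglyceride synthesis 3 were lower and none higher (median -0.06). They were Gpat3 (7.28-fold), Agpat2 (3.06-fold) and Slc27a1 (2.05-fold), and exons of Gpat3 and Agpat2 overlap other genes.

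Regulators, receptors and progenitor genes lay mostly within 2-fold. None of 12 adipogenic regulators was past the threshold (median -0.34), with Cebpb at -0.63 and Rxra at 0.51. Srebf1, picked after its value was seen, had 1217 and 3073 counts, just under the threshold, and passed it under every other scaling tried. Nr1h3, picked likewise, had 252 and 152 counts (log2 ratio -0.995), just short of the threshold in the lower direction. None of 11 measured receptors of adipokines, insulin and related signals was past it (median -0.10), with Adipor1 at -0.86 and Adipor2 at -0.09. Of 10 measured progenitor genes, Pparg among them, 3 were lower and 1 higher (median 0.16). F3, Cd55 and Pi16 were 2.53-fold, 2.34-fold and 2.14-fold lower, and Dlk1, a gene of preadipocytes, had 20 and 145 counts (5.76-fold higher, 3.59 to 9.70). Of 12 measured brown and beige fat genes 3 were lower and 1 higher (median 0.01). Zic1, which passed the filter only through the WT library, Cox8b and Cpt1b were 21.4-fold, 2.38-fold and 2.17-fold lower. Zic1 and Cpt1b are also expressed outside brown fat, the latter in muscle. Elovl3, which is shared with the sebaceous list, went from 40.8 to 759 CPM (18.6-fold higher, 17.0 to 20.4).

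**Figure D4:**
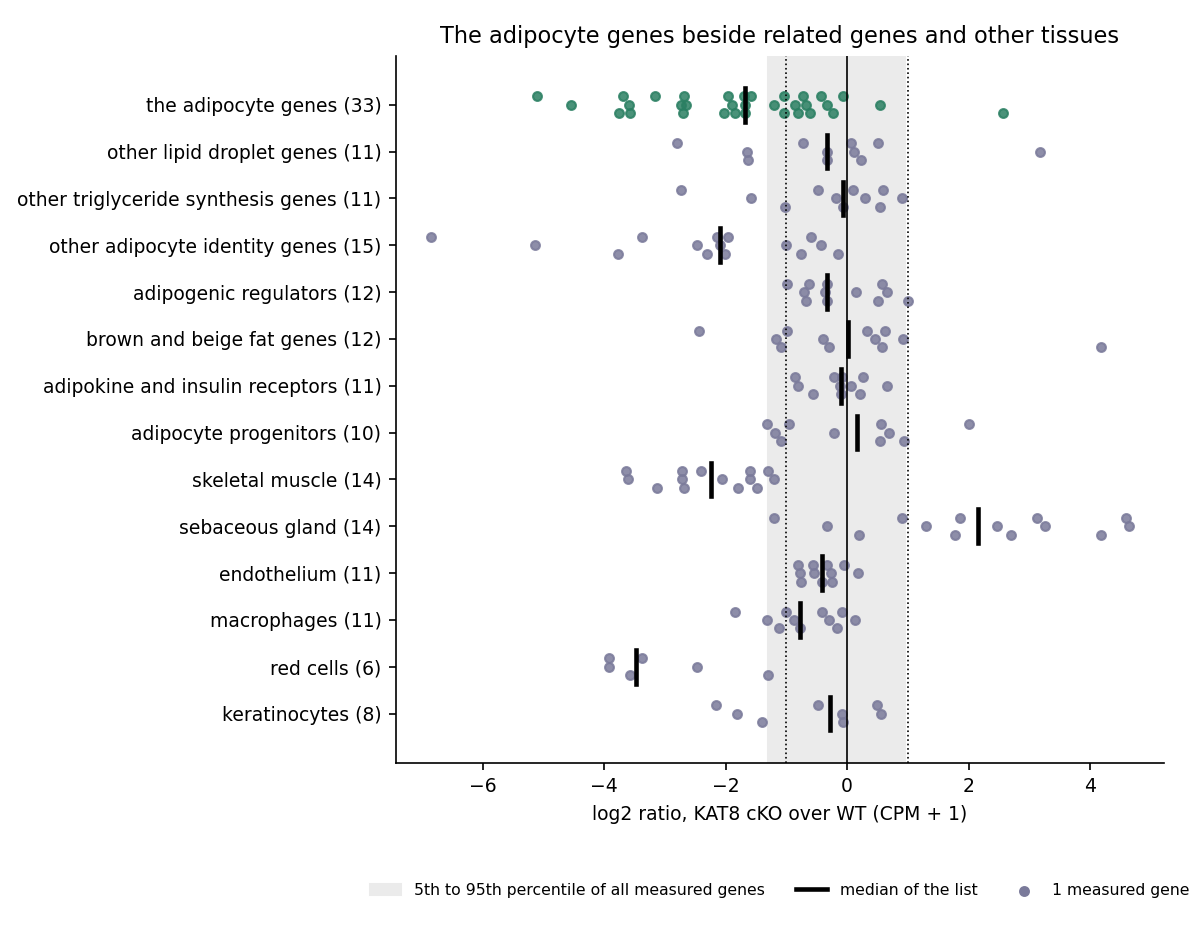
Log2 ratio of (CPM + 1), KAT8 cKO over WT, for each measured gene of the 34 and of 13 other lists, with black bars for medians and the number measured in brackets. The medians of the adipocyte genes (-1.68), other adipocyte identity genes (-2.10), skeletal muscle (-2.23) and red cells lie left of -1, and that of the sebaceous list (2.16) lies right of 1.

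Other tissues in the ear differed between the libraries as well. Besides Dgat2, the sebaceous list had Far2 26.0-fold, Fa2h 24.9-fold, Elovl3 18.6-fold and Krt79 9.65-fold higher. The 7 red cell genes summed to 173 and 9.03 CPM. The 6 measured were lower, but Slc4a1, Alas2 and Hbb-bt passed the filter on level only through the WT library. The globin gene Hbb-bt was 40.6-fold lower, Hbb-bs 18.3-fold, and both Hba-a1 and Hba-a2 17.5-fold, with reads possibly shared among such copies. Of 8 keratinocyte genes 3 were lower and none higher (median -0.28), and the list summed to 26902 and 27168 CPM. Ivl, Krt10 and Krt1, genes of differentiated epidermis, were 4.54-fold, 3.52-fold and 2.63-fold lower. How far the makeup of the specimens accounts for the values of the adipocyte genes was not tested.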

How the data were processed

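The authors deposited 1 table of raw counts per Ensembl gene for 2 ear skin libraries, 1 per genotype. Per the submitters' processing notes, HISAT2, StringTie 1.3.0 and edgeR were used, with mm10 as the build, though not for which step. Which tool counted the reads, on which annotation and with or without strand is not given in the sources used. Reads of overlapping genes therefore cannot be told apart. Identifiers were paired with symbols of GENCODE M21 (GRCm38), which named 34267 of 34745 genes. The other 478 held 0.103% (WT) and 0.0968% (KAT8 cKO) of counts and stayed in the totals.

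TMM factors (0.946 and 1.06) came from edgeR 4.0.16 in R 4.3.3. A pseudocount of 1 CPM was added before taking log2. Folds have exact (Clopper-Pearson) 95% intervals from the counts, pairs of genes exact conditional intervals (scipy 1.17.1). A count of 0 was read against a floor of 3 counts. Intervals and floors cover counting error only, since PCR copies of a molecule were not marked. Levels per kilobase used the merged exons of a gene. The calculations were tested on simulated Poisson counts.

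The members and the gene lists were chosen with earlier results of these data known. The text names all 34 members, Kat8, and of each list up to 4 genes with the largest log2 ratio past 2-fold, or the 2 most abundant where fewer passed. The pairs of genes were chosen after the values were seen. Sequences are from RefSeq (GRCm38.p6). Alternatives changed the scaling (plain CPM, DESeq2 1.42.0 size factors, totals without the 50 most abundant genes), the filter (none, 5 CPM), the pseudocount (0.1 CPM) and the genes kept.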

Additional observations from a re-analysis of the deposited data

How the results depend on the processing

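The count of lower members was 20 to 22 under every alternative that kept all 34 genes or all without overlapping exons, and 1 member was higher. Without the members assigned by hand to other tissues as well, 12 were lower and 0 higher, and the median log2 ratio was -2.70. Plain CPM gave a member median of -1.52 and role medians of 0.39 (transcription factors), -3.01 (carbonic anhydrase), -1.52 (uptake), -1.05 (synthesis) and -1.87 (lipolysis). Acsl1 and Ppargc1a lost their calls under plain CPM and without the 50 most abundant genes in the totals. The latter gave -3.07 (carbonic anhydrase) and -1.10 (synthesis). Without genes with overlapping exons the medians were 0.54 (transcription factors), -1.03 (synthesis), -1.90 (droplet) and -2.30 (lipolysis). With no filter the thermogenic median, Ucp1 included, was -0.39. These scalings moved the median of all measured genes to 0.16 (plain CPM) and 0.11 (without the 50 genes) from 0.01.

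In the other lists, 2 progenitor genes, 2 brown fat genes, 1 adipogenic regulator and 1 synthesis gene were higher under plain CPM and without the 50 genes, and 2 macrophage genes were lower under plain CPM. DESeq2 size factors made 1 regulator higher. The pseudocount of 0.1 CPM made 2 brown fat genes and 1 regulator higher and 1 regulator lower. Without overlapping exons, 0 brown fat and 0 droplet genes were higher, and 1 synthesis and 8 muscle genes were lower, from fewer genes tested. Apart from the last, the cause was not tested. No paired analysis was possible because each genotype has 1 library and the labels give no replicate numbers. Depth limits Lep, Rbp4, Plin5, Lgals12, Aqp7, Adrb3, Mrap, Ucp1 and Ppargc1a, whose counts were under 200.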
